A study of Rattus norvegicus with 20 samples.

Results

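The circadian clock of white adipose tissue was followed through 9 genes: the activators Bmal1 and Clock, which form the positive arm of the clock, the repressors Nr1d1, Nr1d2, Per1, Per2, Cry2 and Bhlhe41, which form the negative arm, and Usp2, a deubiquitinase linked to the clock. The members were all probe sets that the platform annotation pairs with one of these symbols, which gave 15 probe sets of the 15866 analysed. The symbols were 9 of the 10411 genes with a probe set of 1 symbol. A filter on low signals, set on the mean over all pools, was passed by 12 of the 15 probe sets. The single probe set of Bmal1, 1 of 3 for Clock and 1 of 2 for Usp2 lay under it. Where a gene had several probe sets, the one of highest mean signal stood for the gene, and the others are given beside it.

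Visceral fat came from male Wistar rats, an outbred strain, that were 6 weeks old when the feeding began. Control rats received their full recorded intake of a purified powdered diet, and the other groups were held 5%, 10%, 20% or 30% below that amount, over 1 week or 1 month. All rats, controls included, were fasted for 16 h before the tissue was taken, and the clock time of collection was not given in the sources used here. RNA of 5 rats was pooled per group and read on 2 Affymetrix chips, so the 10 pools are the units of comparison and the 2 chips of a pool are technical repeats. With a single time of collection per group, a shift in the phase of a daily rhythm and a change in its mean level cannot be told apart.

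The mammalian clock is a feedback loop in which BMAL1 and CLOCK bind E-box sequences as a pair and switch on the genes of their own repressors. PER and CRY proteins accumulate and block the pair, while the nuclear receptors REV-ERB alpha (Nr1d1) and REV-ERB beta (Nr1d2) bind an element of their own and repress Bmal1. The loop runs in fat cells as in most tissues, and meal times are known to set its phase there.

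Over the probe sets that passed the low-signal filter, duplicate chips correlated at 0.971 to 0.982, and the median technical SD of a pool mean was 0.132 on the log2 scale. The mean log2 signal of 8 adipocyte markers was 10.03 and 10.10 in the control pools and 10.32 to 10.68 in the restricted pools, with no overlap. Markers of other cells also set pools apart. The mean of 15 exocrine pancreas markers reached 12.11 in the 1-week control and 6.43 in the 1-week 30% pool, against 2.41 to 2.85 in the other 8 pools. The mean of 14 lymphocyte markers was 7.58 and 7.69 in the control pools and 3.71 to 7.55 in the restricted pools, and that of 8 macrophage markers was 7.88 and 8.47 against 7.25 to 7.75. The part of these marker shifts in the differences below was not tested beyond a lymphocyte score. In whole tissue, fewer cells of a type and less RNA per cell cannot be told apart.

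Promoter windows of 250 bases before to 50 bases after the start site were searched on both strands for 5 motifs: the E-box CACGTG bound by BMAL1 and CLOCK, the D-box TTANGTAA bound by the PAR bZIP factors, the REV-ERB element TAGGTCA, the cyclic AMP element TGACGTCA and the glucocorticoid element. The 9 genes had 11 windows in the RefSeq table (GRCr8), and 4 of them held a match. These are printed because each holds an element through which the loop is known to work, with the match in capitals. The windows are Bmal1 at chr1:176766078-176766377 (plus strand), Bhlhe41 at chr4:180569306-180569605 (minus strand), Per2 at chr9:99496944-99497243 (minus strand) and the downstream of 2 windows of Nr1d1 at chr10:84229405-84229704 (minus strand).
Bmal1: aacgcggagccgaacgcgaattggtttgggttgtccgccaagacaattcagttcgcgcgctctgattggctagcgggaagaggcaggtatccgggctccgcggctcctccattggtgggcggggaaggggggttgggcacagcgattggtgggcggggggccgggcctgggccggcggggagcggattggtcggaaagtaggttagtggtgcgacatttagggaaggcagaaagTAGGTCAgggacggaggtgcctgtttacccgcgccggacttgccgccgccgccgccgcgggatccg
Bhlhe41: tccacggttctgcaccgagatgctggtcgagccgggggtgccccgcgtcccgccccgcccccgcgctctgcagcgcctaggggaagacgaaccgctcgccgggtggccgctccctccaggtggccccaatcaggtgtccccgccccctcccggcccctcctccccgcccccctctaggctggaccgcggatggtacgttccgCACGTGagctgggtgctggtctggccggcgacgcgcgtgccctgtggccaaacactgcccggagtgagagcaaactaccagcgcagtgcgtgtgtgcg
Per2: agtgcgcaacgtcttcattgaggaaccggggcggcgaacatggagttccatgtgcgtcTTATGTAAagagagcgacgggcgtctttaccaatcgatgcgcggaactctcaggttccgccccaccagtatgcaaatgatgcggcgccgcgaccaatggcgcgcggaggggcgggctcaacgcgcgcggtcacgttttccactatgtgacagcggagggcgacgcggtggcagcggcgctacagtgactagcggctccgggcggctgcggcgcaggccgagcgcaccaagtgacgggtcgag
Nr1d1: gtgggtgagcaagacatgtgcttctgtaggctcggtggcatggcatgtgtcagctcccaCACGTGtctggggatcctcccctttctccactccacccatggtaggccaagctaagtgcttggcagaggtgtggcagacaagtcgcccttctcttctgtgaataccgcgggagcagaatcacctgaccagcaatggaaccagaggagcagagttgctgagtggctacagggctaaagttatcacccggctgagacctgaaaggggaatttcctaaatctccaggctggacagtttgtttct
In Bmal1 the REV-ERB element began 16 bases before the start site, in Bhlhe41 the E-box began 48 bases before it, in Per2 the D-box began 192 bases before it, and in Nr1d1 the E-box began 191 bases before the start of its transcript. Of all 33469 windows, 6.42% held the E-box, 2.24% the D-box, 2.63% the REV-ERB element, 1.83% the cyclic AMP element and 0.439% the glucocorticoid element. The E-box stood in 2 of the 11 member windows, the D-box and the REV-ERB element in 1 each, and the cyclic AMP and glucocorticoid elements in 0. A match is a run of letters and not a measured site.

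Of the positive arm, Bmal1 stood lower under restriction. Bmal1 had log2 signals of 5.37 and 5.49 in the controls of 1 week and 1 month. In the pools from 5% to 30% restriction it had 4.47, 3.78, 3.57 and 3.43 at 1 week and 4.34, 4.19, 3.48 and 4.53 at 1 month. The restricted and control pools did not overlap, and every restricted pool lay 0.90 to 2.01 below its own control. The difference was at least 1.5-fold, with one sign over all 4 comparisons of single chips, in 8 of 8 restricted pools, a pattern met downwards by 0.214% of all probe sets. Because the probe set of Bmal1 lay at the 36.2nd percentile of mean signal, under the filter at the 40th, its test was adjusted over all 15866 probe sets. It fell by 1.46 ± 0.33 on the log2 scale in the 8 restricted against the 2 control pools (SE, n = 10 pools, adjusted p = 0.045 by limma). The mean signal of Bmal1 in every restricted pool was under the low-signal limit, so the size is uncertain, and it was −0.88 on log2(signal + 16) (adjusted p = 0.0251). In that fit 0.536% of all probe sets were called lower.

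Clock, the partner of Bmal1, lay less far below control. Its brightest probe set had 6.57 and 6.82 in the control pools, 6.25, 6.25, 5.99 and 6.23 at 1 week and 6.13, 6.47, 6.46 and 6.80 at 1 month. All 8 restricted pools lay below their own control, as for 14.8% of the 9520 probe sets tested, but the 30% pool at 1 month did so by only 0.02 and lay above the control of 1 week. The difference of −0.37 ± 0.15 did not pass (adjusted p = 0.13, limma). A dimmer Clock probe set gave −0.54 ± 0.25 (adjusted p = 0.18), and the one under the filter gave 0.24 ± 0.31, so the 3 probe sets did not share a direction.

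**Figure D1:**
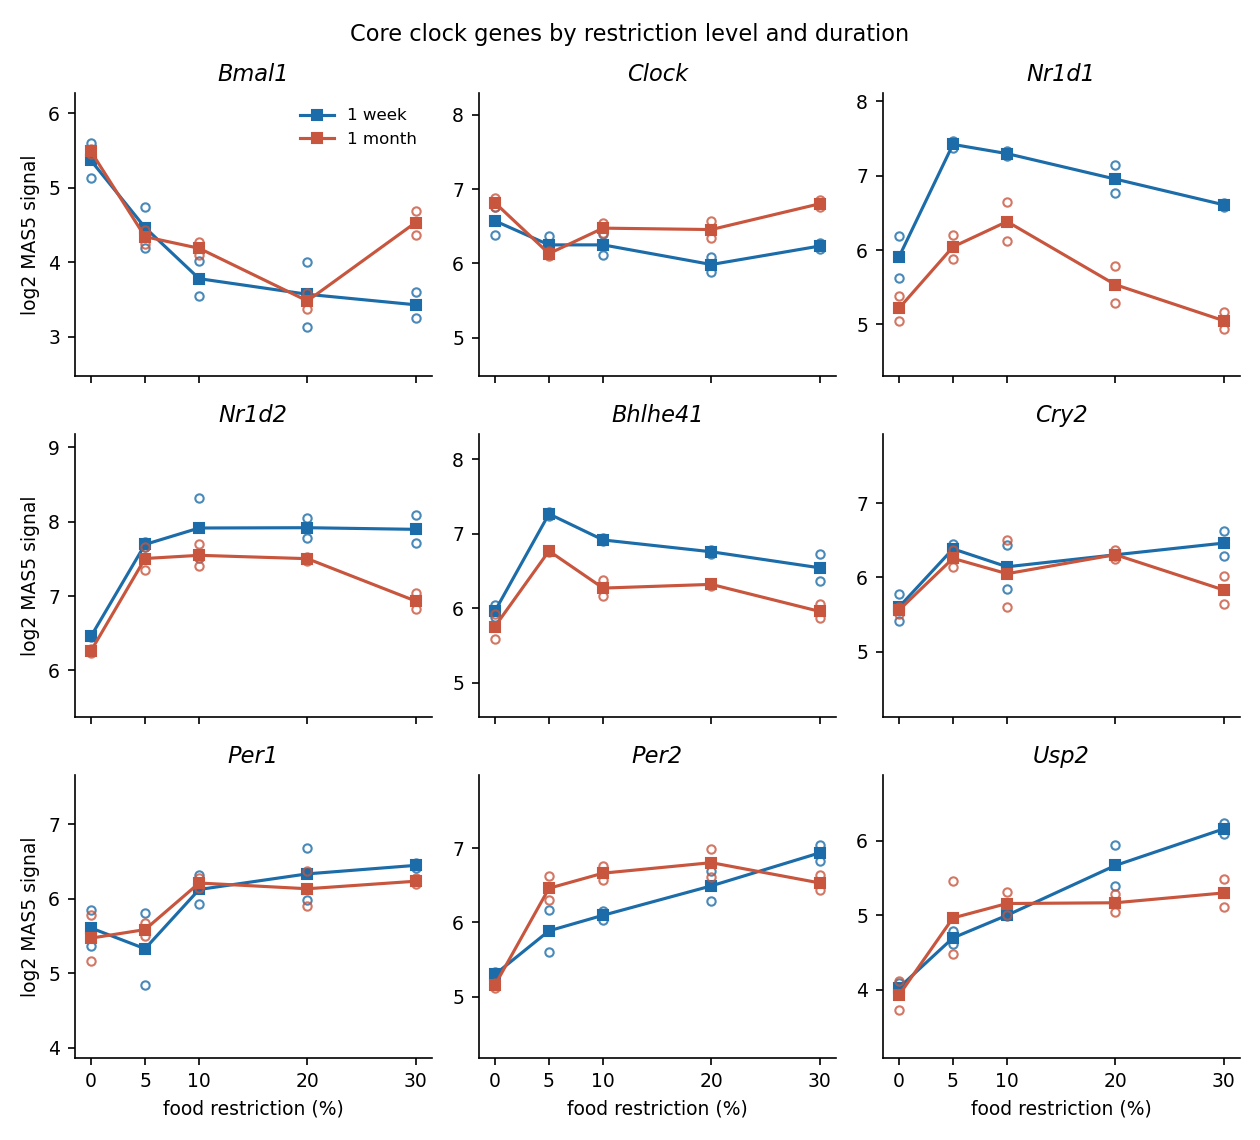
Log2 signal of the 9 genes (1 panel each, vertical axis) against food restriction in percent (horizontal axis), with large markers for pool means joined by lines at 1 week and 1 month and small markers for single chips. Bmal1 falls from 5.37 and 5.49 in the controls to 3.43 and 4.53 at 30%, Nr1d2, Per2 and Usp2 lie above control at every level, and Nr1d1 and Bhlhe41 are above control at 5% and lower at 30% than at 5%.

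Nr1d2, a repressor of Bmal1, had the smallest adjusted p of the 9 genes in restricted against control pools. Its log2 signals were 6.46 and 6.26 in the control pools. They were 7.69, 7.92, 7.92 and 7.90 from 5% to 30% at 1 week and 7.50, 7.55, 7.50 and 6.93 at 1 month. The groups did not overlap, and the 5% pools already stood 1.24 above control at both durations. The share of probe sets without overlap was not counted. Of those tested, 15.1% lay above their own control in 8 of 8 pools. Nr1d2 rose by 1.25 ± 0.15, 2.39-fold (adjusted p = 0.0048, limma), and its other 2 probe sets, which share one source transcript, rose by 1.31 ± 0.20 (adjusted p = 0.0078) and 1.09 ± 0.24 (adjusted p = 0.029). The last of these had control signals under the low-signal limit (16.34 at 1 week and 14.95 at 1 month). In this comparison 4.34% of tested probe sets were called higher and 1.6% lower. Like Per2 and Usp2, it was changed upwards by at least 1.5-fold in 8 of 8 restricted pools, which 0.431% of tested probe sets were. Without the control pool at 1 week, which carried the pancreas markers, the value was 1.11 and the call was lost. Only 1 control pool was left in that fit, and the cause of the loss was not tested.

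Nr1d1, the paralogue, stood highest at mild restriction and lower at severe restriction. Its signals were 5.90 in the control pool at 1 week and then 7.42, 7.30, 6.95 and 6.61. At 1 month they were 5.22 in the control pool and then 6.04, 6.38, 5.54 and 5.05. Nr1d1 was above its control in 7 of 8 pools, and the 30% pool at 1 month was the exception, 0.16 below control. The mean difference of 0.85 ± 0.30 did not pass (adjusted p = 0.10). From 5% to 30% its signal was 0.81 lower at 1 week and 0.99 lower at 1 month.

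Bhlhe41 (DEC2), a repressor that competes for E-boxes, had a like profile. Its signals were 5.96, 7.27, 6.92, 6.76 and 6.54 from control to 30% at 1 week and 5.75, 6.77, 6.27, 6.32 and 5.96 at 1 month. It was highest in the 5% pool at each duration, and the control at 1 week and the 30% pool at 1 month were level at 5.96. All 8 pools lay above their own control, which 15.1% of tested probe sets did. The mean difference was 0.74 ± 0.21 (adjusted p = 0.056), just outside the threshold. From 5% to 30% Bhlhe41 was 0.72 lower at 1 week and 0.81 lower at 1 month.

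The period genes, whose proteins bind the CRY proteins and block the activator pair, were called higher in the slope with control as 0%. Per2 had 5.30 and 5.16 in the control pools. It had 5.89, 6.10, 6.49 and 6.93 at 1 week and 6.46, 6.66, 6.80 and 6.53 at 1 month. Restricted and control pools did not overlap, where 15.1% of tested probe sets lay above their own control in 8 of 8 pools. At 1 week the order of the pools followed the level of restriction without exception. Per2 rose by 1.25 ± 0.22 in restricted against control pools (adjusted p = 0.015), and by 0.42 ± 0.10 for each 10% of restriction (adjusted p = 0.028). In the fit of the slope, 5.71% of tested probe sets were called higher and 3.69% lower.

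Per1 had 5.61 and 5.47 in the control pools, 5.33, 6.12, 6.33 and 6.45 at 1 week and 5.58, 6.21, 6.13 and 6.24 at 1 month. The 5% pools lay at or near control, 0.28 below it at 1 week and 0.11 above it at 1 month, and the other 6 pools lay 0.52 to 0.84 above it. Per1 rose by 0.30 ± 0.07 per 10% of restriction (adjusted p = 0.022), while the difference between restricted and control pools, 0.51 ± 0.26, did not pass (adjusted p = 0.21). The slopes stayed between 0.26 and 0.35 for Per1 and between 0.32 and 0.56 for Per2 with any 1 pool left out, but some of these omissions ended the calls. Without the 30% pool at 1 week the slopes were 0.31 (adjusted p = 0.0961) and 0.40 (adjusted p = 0.13), and without the control pool at 1 month 0.29 (adjusted p = 0.0846) and 0.32 (adjusted p = 0.0932). Both calls were also lost without the control pool at 1 week (0.30, adjusted p = 0.0661, and 0.37, adjusted p = 0.101), and that of Per2 without the 20% pool at 1 week (0.42, adjusted p = 0.0577) or at 1 month (0.41, adjusted p = 0.0566).

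Cry2, a cryptochrome that acts with the PER proteins, stood above control at every level. Its signals were 5.60 and 5.56 in the control pools, 6.38, 6.14, 6.30 and 6.46 at 1 week and 6.26, 6.05, 6.31 and 5.83 at 1 month. The control and restricted pools did not overlap, although the 30% pool at 1 month stood only 0.27 above its control. Of tested probe sets, 15.1% lay above their own control in 8 of 8 pools. Cry2 rose by 0.64 ± 0.14, 1.56-fold (adjusted p = 0.027), and its dimmer probe set by 0.67 ± 0.15 (adjusted p = 0.031). The call was lost without the control pool at 1 week (0.55, adjusted p = 0.333), without that at 1 month (0.72, adjusted p = 0.155) and without either 20% pool (adjusted p = 0.0570 at 1 week and 0.0512 at 1 month).

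Usp2, a deubiquitinase reported to act on clock proteins, had the steepest slope of the 9 genes. It had 4.03 and 3.92 in the control pools. It had 4.70, 5.00, 5.67 and 6.16 at 1 week and 4.96, 5.16, 5.17 and 5.30 at 1 month. Its pools were ordered by level at 1 week and at 1 month alike, though at 1 month the 10% and 20% pools differed by less than their chips did. Usp2 rose by 0.51 ± 0.10 per 10% of restriction (adjusted p = 0.012), and by 1.29 ± 0.30 in restricted against control pools (adjusted p = 0.034). The second probe set, under the filter, gave a slope of 0.68 ± 0.13 (adjusted p = 0.017 over all probe sets, of which 2.6% were called higher) and a difference of 1.49 ± 0.47 (adjusted p = 0.11), but its 2 chips of the control pool at 1 month lay 3.60 apart. On log2(signal + 16) the brighter probe set gave a slope of 0.34 (adjusted p = 0.0109) and a difference of 0.79 (adjusted p = 0.0496). With no filter the difference of the brighter probe set missed the threshold (adjusted p = 0.0519), and its slope was 0.47 (adjusted p = 0.0842) without the 30% pool at 1 week and 0.46 (adjusted p = 0.0581) without the control pool at 1 month.

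**Figure D2:**
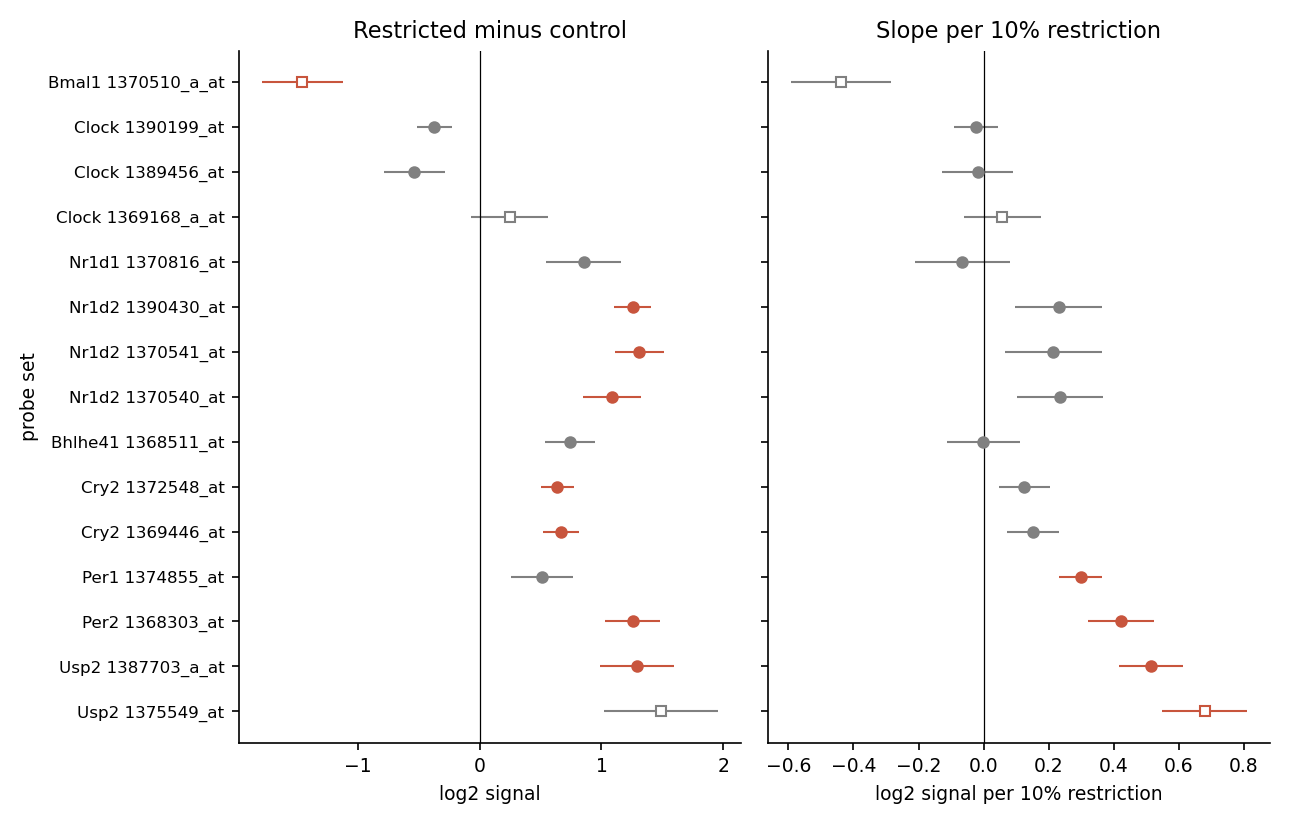
Fitted log2 estimates with standard error bars (horizontal axis, log2 signal or log2 signal per 10% of restriction) for all 15 probe sets of the 9 genes (rows), for restricted against control pools and for the dose slope. Red marks an adjusted p under 0.05 and an open square a probe set under the low-signal filter, adjusted over all probe sets; on the left Bmal1 is red at −1.46, as are all probe sets of Nr1d2 and Cry2, Per2 and the brighter of Usp2, and on the right Per1, Per2 and both probe sets of Usp2 are red.

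Whether a gene changed at once or by degrees was read from a fit that held a slope among the restricted pools and a step between that line and the controls. The step was called for 3 of the 9 genes, Nr1d1, Nr1d2 and Bhlhe41, against 0.315% of tested probe sets called higher and 0.0105% called lower. Nr1d1 had a step of 1.51 ± 0.21 (adjusted p = 0.029), Nr1d2 of 1.38 ± 0.18 (adjusted p = 0.020) and Bhlhe41 of 1.17 ± 0.16 (adjusted p = 0.020). Cry2 had 0.68 ± 0.18 (adjusted p = 0.18) and Per2 0.89 ± 0.22 (adjusted p = 0.17), and the step of Per1 was 0.04 ± 0.23. Bmal1 had a step of −1.17 ± 0.41, which did not pass (adjusted p = 0.45 over all probe sets).

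Along the restricted pools, the slope was −0.40 ± 0.08 per 10% for Nr1d1 (adjusted p = 0.064) and −0.26 ± 0.06 for Bhlhe41 (adjusted p = 0.081), and it was 0.35 ± 0.10 for Usp2 (adjusted p = 0.15), 0.29 ± 0.09 for Per1 (adjusted p = 0.18) and 0.22 ± 0.08 for Per2 (adjusted p = 0.28). Nr1d2 had −0.08 ± 0.07 and Cry2 −0.03 ± 0.07. None of these slopes passed, in a fit that called 0.42% of tested probe sets in either direction. The 3 steps were not called without the control pool at 1 week, where they were 1.20 for Nr1d1 (adjusted p = 0.264), 1.24 for Nr1d2 (adjusted p = 0.227) and 1.00 for Bhlhe41 (adjusted p = 0.227), nor without the 10% pool at 1 week (adjusted p = 0.104, 0.0847 and 0.0847) or the 20% pool at 1 week (adjusted p = 0.0582, 0.0539 and 0.0539). Without the 30% pool at 1 week those of Nr1d1 and Bhlhe41 missed (adjusted p = 0.0560 for both), as did that of Nr1d1 without the 5% pool at 1 week (adjusted p = 0.0506).

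**Figure D3:**
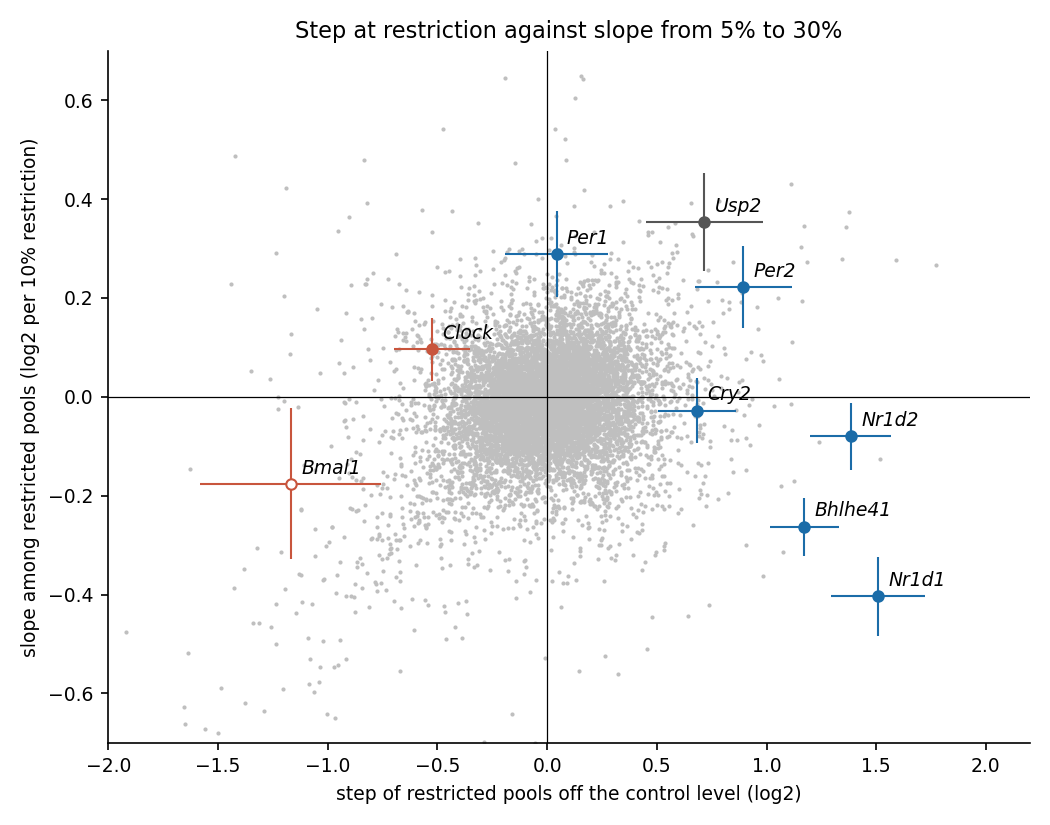
Step of the restricted pools off the controls (horizontal axis, log2 signal) against the slope among restricted pools (vertical axis, log2 signal per 10% of restriction), with all tested probe sets in grey within the axis limits and the 9 genes in colour with standard error bars. Red marks the positive arm, blue the negative arm and dark grey Usp2, and an open marker lies under the filter; Nr1d1 (step 1.51, slope −0.40) and Bhlhe41 (1.17, −0.26) lie at lower right, Usp2 (0.72, 0.35) at upper right, and Bmal1 (−1.17, −0.18) at lower left.

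By their medians the arms lay on opposite sides of control. Over all 9520 tested probe sets, 4460 had estimates above 0 and 5060 below, with 4.34% called higher and 1.6% lower. Of the negative arm, all 9 probe sets had estimates above 0 in restricted against control pools, with a median of 0.85, and 6 were called higher. Taken as 1 probe set per gene, 3 of its 6 genes were called and the median was 0.80. Of the positive arm, 3 of 4 probe sets had estimates below 0, the median was −0.45, and neither of the 2 that passed the filter was called, while Bmal1 was called over all probe sets. The median over all tested probe sets was −0.03. With 1 probe set per gene the median of the negative arm exceeded that of the positive arm by 1.71, which fell to 1.43 without the control pool at 1 week.

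Pool by pool, with 1 probe set per gene, both genes of the positive arm stood below their control in all 8 restricted pools, Clock by only 0.02 in the 30% pool at 1 month. All 6 genes of the negative arm stood above it in 6 of the 8. The exceptions were Per1 in the 5% pool at 1 week and Nr1d1 in the 30% pool at 1 month. The Clock probe set under the filter lay above control in 7 of 8 pools, and the dimmer one that passed it in 1. Of all tested probe sets, 14.8% lay below their own control in 8 of 8 pools and 15.1% above it. The median of the negative arm against control was 1.01, 0.88, 0.92 and 0.85 from 5% to 30% at 1 week and 0.92, 0.95, 0.71 and 0.47 at 1 month. That of the positive arm was −0.61, −0.96, −1.19 and −1.14 at 1 week and −0.92, −0.82, −1.18 and −0.49 at 1 month. The 30% pool at 1 month was therefore nearest to its control in both arms, while its Usp2 stood 1.38 above control. The 4 pools of a duration share 1 control pool, so a value of that control moves all 4 together.

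**Figure D4:**
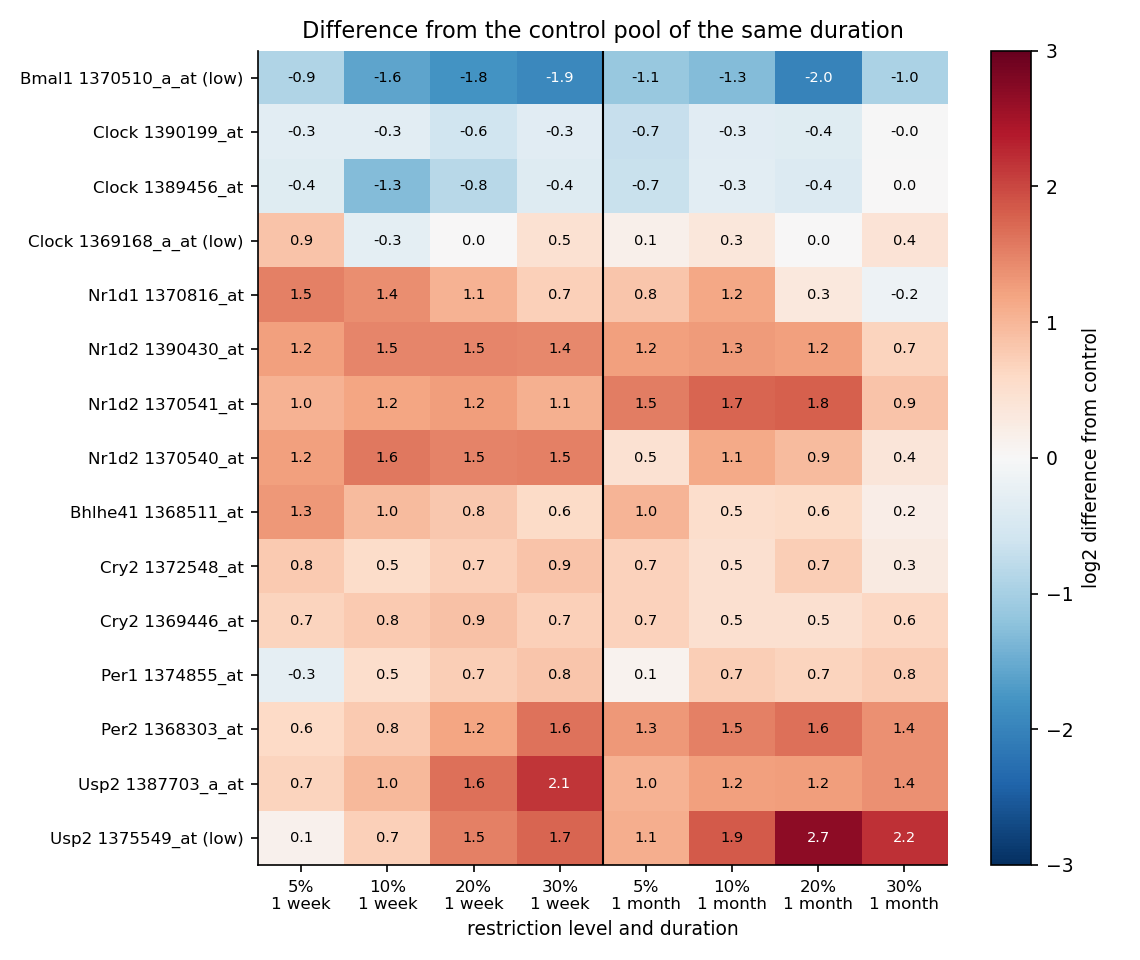
Difference in log2 signal from the control pool of the same duration (colour scale) for every probe set of the 9 genes (rows) in the 8 restricted pools (columns), with probe sets under the low-signal filter marked (low). Rows of the negative arm and Usp2 are above 0 apart from Per1 at 5%, 1 week (−0.28) and Nr1d1 at 30%, 1 month (−0.16), and Bmal1 is below 0 throughout (−2.01 to −0.90).

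The duration of feeding was compared at equal levels of restriction. Nr1d1 fell by 1.19 ± 0.14 from 1 week to 1 month (adjusted p = 0.0042, limma) and was lower at 1 month at 5 of 5 levels, by 0.69 in the controls and by 0.91 to 1.56 in the restricted pools. Bhlhe41 fell by 0.47 ± 0.09 (adjusted p = 0.032), also at 5 of 5 levels, but its call was lost without any 1 of the 8 restricted pools (adjusted p = 0.0842 to 0.117). The Nr1d2 probe set that stands for the gene gave −0.43 ± 0.11 (adjusted p = 0.088), and 1 of its other probe sets fell by 0.66 ± 0.13 (adjusted p = 0.034). Per1, at −0.04 ± 0.11, and Per2, at 0.18 ± 0.15, did not pass, nor did Bmal1, at 0.28 ± 0.25, or Clock, at 0.28 ± 0.11. In this comparison 0.798% of tested probe sets were called higher and 2.02% lower at 1 month. The 2 durations also differ in the age of the rats at collection and in the scaling of the chips before deposit, which cannot be told apart from feeding time.

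The response to restriction itself was also compared between durations. The difference in restricted against control, 1 month minus 1 week, was −0.63 ± 0.61 for Nr1d1, −0.29 ± 0.31 for Nr1d2, 0.41 ± 0.45 for Per2 and 0.20 ± 0.69 for Bmal1. The difference in slope per 10% was −0.34 ± 0.18 for Usp2, the smallest unadjusted p among the 9 genes (0.088, limma). None of the 9 genes passed in either comparison (adjusted p at least 0.998), where 0.021% and 0% of tested probe sets were called, and errors of this size leave room for differences as large as the changes themselves. Taken separately, Nr1d2 was called at 1 week (1.40 ± 0.22, adjusted p = 0.030, beside 0.179% of probe sets called higher). At 1 month, where pancreas markers were low in every pool (2.50 to 2.78), Per2 stood 1.46 ± 0.32 above control, Nr1d2 1.11 ± 0.22, Usp2 1.22 ± 0.45 and Bmal1 −1.35 ± 0.49 from it, with adjusted p of 0.15, 0.13, 0.34 and 0.45 and 0.0525% of probe sets called higher.

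Relations between members were taken over the 8 restricted pools only, for 6 pairs set by the loop, with the mean of each duration removed. The permutations ran over all 8 pools and not within durations, so their p-values may be too small. The level of restriction was not taken out. Per1 and Per2 followed each other most closely (Pearson r = 0.775, exact permutation p = 0.0205, adjusted p = 0.123; Spearman rho = 0.810, exact permutation p = 0.0218, adjusted p = 0.131), and r was 0.792 without the 2 pools farthest from the median. Within durations r was 0.840 at 1 week and 0.574 at 1 month. Bmal1 and Nr1d2, its repressor, had r = −0.594 (exact permutation p = 0.128, adjusted p = 0.297), and Bmal1 and Nr1d1 had r = 0.286 (exact permutation p = 0.489, adjusted p = 0.580). Nr1d1 and Nr1d2 had r = 0.556, which became −0.355 without the 2 farthest pools and was −0.582 at 1 week and 0.835 at 1 month. No pair passed after adjustment over the 6.

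Over all 10 pools, with the mean of each duration removed, the profile nearest to Nr1d2 among 7112 other genes was that of Dbp, the first output factor of the clock (Pearson r = 0.993), followed by Mmd (0.983) and Nol3 (0.965). Usp2 was nearest to Maco1 (0.995), Abhd12 and Txlng, and Per2 to Ube2m (0.986), Washc5 and Hdac6. Per1 lay nearest to Vps11 (0.970), Bmal1 to F5 (0.968), Cry2 to Supv3l1 (0.967), Nr1d1 to Mapk6 (0.951), Clock to Inha (0.927) and Bhlhe41 to Pdgfra (0.923). The 10 pools include the controls, so these values describe a shared difference from control as much as a shared order of levels.

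Outside the 9 genes, 26 other genes of the clock and its output were on the array and 21 were tested, of which 6 were called higher and 0 lower in restricted pools, where 4.34% and 1.6% of all tested probe sets were. The PAR bZIP factors, which bind the D-box found in the window of Per2, stood above control in 8 of 8 pools by their brightest probe sets. Of tested probe sets, 15.1% did so. A second Hlf probe set, under the filter, lay above control in 4 pools and below it in 4. Dbp rose by 2.72 ± 0.24 (adjusted p = 5.47e-04) and Tef by 2.32 ± 0.33 (adjusted p = 0.0060), while Hlf gave 0.82 ± 0.26 (adjusted p = 0.081) but rose with the level of restriction (0.35 ± 0.08 per 10%, adjusted p = 0.028). Both control pools of Tef were under the low-signal limit, at 3.73 and 1.78 on log2. Tef passed the filter through its restricted pools, so the size of its rise is uncertain. Dbp had a step of 3.02 ± 0.28 off the dose line (adjusted p = 0.0038), as Nr1d1 and Nr1d2 had. Nampt, an enzyme of NAD synthesis, rose by 1.19 ± 0.17 (adjusted p = 0.0058), and Por, Tspan4 and Klf15 rose by 1.04 ± 0.18 (adjusted p = 0.014), 1.07 ± 0.21 (adjusted p = 0.020) and 0.57 ± 0.14 (adjusted p = 0.036). With the level of restriction Nampt, Por and Tspan4 rose by 0.39, 0.37 and 0.39 per 10% (adjusted p = 0.023, 0.015 and 0.018), in the fit that called 5.71% of tested probe sets higher. Nampt also had a step off the dose line, 0.88 ± 0.15 (adjusted p = 0.035, limma).

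Of 10 tested kinases and ubiquitin ligases that act on clock proteins, 0 were called in restricted against control pools or in the slope (limma), and Prkaa1, a subunit of AMP-activated kinase, came nearest (0.72 ± 0.20, adjusted p = 0.057). Of the other repressors only Bhlhe40 was tested (0.39 ± 0.21, adjusted p = 0.23). Per3 lay under the filter and was 0.64 to 2.68 above control in 8 of 8 pools, and Nfil3, also under it, was below control in 6 of 8. Cry1 and Npas2 had no probe set of 1 symbol and are not analysed here.

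The calls were next set beside the markers that moved with restriction. Lymphocyte markers in the 5% pool at 1 month had a mean of 7.55 against 7.58 in its control, while macrophage markers had 7.57 against 8.47 and adipocyte markers 10.46 against 10.10. In that pool Nr1d2 stood 1.24, Nr1d1 0.83, Per2 1.30, Per1 0.11, Cry2 0.70, Bhlhe41 1.02 and Usp2 1.04 above control, and Bmal1 differed from it by −1.15 and Clock by −0.68. A lymphocyte score was then added as a covariate. It was the mean over all probe sets of the lymphocyte markers that passed the filter, and so differs from the means above. With it Nr1d2 rose by 1.13 (adjusted p = 0.013). The steps were 1.40 for Nr1d1 (adjusted p = 0.0058), 1.28 for Nr1d2 and 1.22 for Bhlhe41 (adjusted p = 0.0045 for both). Under the same covariate Per2 gave 0.93 (adjusted p = 0.0607), Cry2 0.58 (adjusted p = 0.146), Usp2 0.97 (adjusted p = 0.216) and Bmal1 −1.03 (adjusted p = 0.316). The slopes were 0.22 for Per1 (adjusted p = 0.173), 0.28 for Per2 (adjusted p = 0.206) and 0.41 for Usp2 (adjusted p = 0.0872), so none of the 3 slope calls held. Calls fell over the whole array. With the score 0.651% of tested probe sets were called in restricted against control and 1.88% in the slope, against 5.93% and 9.4% without it. The step called 0.599%, against 0.326%. Lymphocyte markers were highest in the control pools, so the score and restriction cannot be fully separated.

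Leaving out both pools with pancreas markers, the control and the 30% pool at 1 week, left 1 control pool and called 0 of the 9 genes in restricted against control, in the slope and in the step. In restricted against control the values were 1.46 for Per2, 1.11 for Nr1d2, 1.22 for Usp2, 0.55 for Cry2 and −1.35 for Bmal1. They rest on the 1-month pools alone, so they repeat the values at 1 month and those without the control pool at 1 week. They are not a separate check. The call of Bmal1 was also lost without either control pool (adjusted p = 0.454 at 1 week and 0.236 at 1 month) and without any 1 of 6 restricted pools (adjusted p = 0.0515 to 0.0854). Per2 lost its call in restricted against control without either control pool (1.46, adjusted p = 0.15, and 1.05, adjusted p = 0.179). Usp2 lost its own without either control pool (adjusted p = 0.336 and 0.2), either 20% pool (adjusted p = 0.0663 at 1 week and 0.0621 at 1 month), or the 10% or the 30% pool at 1 month (adjusted p = 0.0563 and 0.0564). Bhlhe41, not called with all pools, was called without either 5% pool (adjusted p = 0.0455 and 0.0263) or without the 30% pool at 1 month (adjusted p = 0.0455), and Per1 was called without the 5% pool at 1 week (0.63, adjusted p = 0.0472). The slope of Bmal1, −0.44 ± 0.15 per 10% with all pools (adjusted p = 0.13), was −0.67 without the 30% pool at 1 month (adjusted p = 0.0209).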

How the data were processed

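Visceral fat RNA of 5 rats per group was pooled by the authors and read on 2 Affymetrix rat expression chips per pool. The deposited table holds intensity on a linear scale, as MAS5 signals according to the submitters' processing notes, and no detection or change calls were used. The trimmed mean signal differed between sets of chips before deposit (77.7 and 111.7 at 1 week, 98.5 and 98.1 at 1 month). Each chip was therefore scaled to a trimmed mean (trim 0.02) of 100, signals under 1 were set to 1 (0.769% to 3.75% of a chip), log2 was taken, and the 2 chips of a pool were averaged. This leaves differences of pool means within a duration unchanged apart from the floor, but moves those between durations. At 1 week it also moves comparisons of a first chip with a second chip. The rule of one sign over 4 comparisons of single chips therefore depends on this scaling.

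Of 15923 probe sets, 57 array controls were left out. The platform table pairs 12783 with 1 symbol, 312 with several and 2771 with none, and 12748 matched the RefSeq gene table. Probe sets whose mean log2 signal fell below the 40th percentile (a signal of 23.8) were set aside, which left 9520 for 7113 genes. The 10 pool means were fitted with limma 3.58.1 in R 4.3.3, using lmFit and eBayes with a trend in intensity. Tests were two-sided, p-values were adjusted by Benjamini-Hochberg, and calls were made under 0.05. Members under the filter were adjusted over all 15866 probe sets in a fit without it. All groups have 1 pool and share one estimate of the spread. The p-values therefore measure the spread of pools around each fit, which also holds differences between levels or durations that the fit leaves out. No condition has a repeat pool, and the number of arrays limits the precision. The fitting procedure was tested on simulated data. The text names every member, and of the wider clock lists those past the threshold in restricted against control or the slope, with the nearest others added after their values were seen. The members and lists were chosen with earlier results of these data known. Alternatives were other scalings, filters, offsets and fits, a 2-fold minimum, and leaving out chips or pools. The comparison of the arms under those settings was added after seeing the data.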

Additional observations from a re-analysis of the deposited data

How the results depend on the processing

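For 20 estimates of single members (all 9 in restricted against control, and those of the slope, step and duration followed across settings) no setting changed the direction. Of the members above the low-signal filter, so without Bmal1, 4 were called in restricted against control, 3 in the slope, 3 in the step, 0 in the slope among restricted pools and 2 in 1 month minus 1 week. With 1 pool left out these counts ran from 0 to 6, 0 to 3, 0 to 3, 0 to 2 and 1 to 2. In restricted against control the count was 0 and 1 without the control pool at 1 week and 1 month. In the slope it was 0 without the 30% pool at 1 week or the control pool at 1 month, in the step 0 without the control, 10% or 20% pool at 1 week, and in 1 month minus 1 week 1 without any 1 restricted pool. Without the first chip of each pool, 2 were called in restricted against control and 1 in 1 month minus 1 week, and without the second chip 1 in the latter. Without the control and 30% pools at 1 week the counts were 0 for restricted against control, 0 for the slope, 0 for the step and 1 for 1 month minus 1 week. The lymphocyte covariate gave 1 in restricted against control, 0 in the slope and 1 in the slope among restricted pools, where 0.651%, 1.88% and 1.08% of tested probe sets were called. With no intensity trend, 1 step was called and 1 difference between durations, and with median centring 1 difference between durations. A filter at the 60th percentile gave 1 slope among restricted pools. Across the settings, the call in restricted against control was lost in 14 for Bmal1, 11 for Usp2, 8 for Cry2, 4 for Per2 and 2 for Nr1d2. The cause was not tested.

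Chip numbers pair chips scaled together, not animals. In a fit of all 20 chips with the chip number as a replicate block and the pool as a random block, 7 members were called in restricted against control and 2 in the slope among restricted pools. That fit called 17.8% and 3.01% of tested probe sets, against 5.93% and 0.42% in the main fit. Its added chips are technical repeats and not further pools, so the higher counts are not added evidence. With a 2-fold minimum, 25 pairs of a member and a pool were higher and 6 lower, against 44 and 10 at 1.5-fold, where 2.44% to 9.3% of tested probe sets were higher in a pool and 3.25% to 13.4% lower. The median of the negative arm minus that of the positive arm, 1.71, was 1.26 on log2(signal + 16), 1.43 without the control and 30% pools at 1 week, and 1.43 to 1.96 with 1 pool left out. Both values of 1.43 rest on the 1-month pools alone. Per1 and Per2 passed with median centring (r = 0.837, exact permutation, adjusted p = 0.0298), with the same limit that pools were permuted across durations. Over all probe sets, restricted against control called 565 (6 to 1978 with 1 pool left out, 5 to 1695 under other settings) and the slope 895 (110 to 1921, and 15 to 1729). The step called 31 (4 to 79, and 0 to 193), the slope among restricted pools 40 (3 to 211, and 2 to 287) and 1 month minus 1 week 268 (62 to 145, and 47 to 852). Median centring moved the median of all tested probe sets from −0.03 to 0.09 in restricted against control. Restricted against control could not be compared between durations without a control pool.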
